A study of Mus musculus with 32 samples.

Results

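The 10 genes described here make up the core machinery of antigen presentation by major histocompatibility complex (MHC) class II molecules in the mouse: H2-Aa, H2-Ab1, H2-Eb1, Cd74, Ciita, H2-DMa, H2-DMb1, H2-Oa, H2-Ob and Ctss. They were picked by gene symbol, through the gene identifier for renamed genes. The rule used no measured values, though earlier results of these data were known. All 10 were measured, by 12 of the 18328 probe sets on the arrays, among 17297 genes. H2-Ab1 had a second probe set, and H2-DMb1 had a second probe set that also matches H2-DMb2. The other 8 genes had 1 probe set each, and where a gene had several the brightest that matched it alone in RefSeq was used. For H2-Ab1 the file also lists the locus LOC641240 beside that probe set, while its second probe set names H2-Ab1 only. In assembly GRCm38.p6 the 7 genes whose symbols start with H2 lie together on chromosome 17. Ciita lies on chromosome 16, Cd74 on chromosome 18 and Ctss on chromosome 3.

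The study profiled 32 mouse brain samples, 22 malignant gliomas and 10 normal tissues, 1 array each, in sets named Z1 and Z2. Set Z1 held 9 gliomas of genotype hGFAP-cre;p53KO/+;Nf1+/flox, called cis p53/Nf1 gliomas here, and 3 normal forebrains. Set Z2 held 9 gliomas of genotype hGFAP-cre;p53flox/flox, called p53 gliomas, and 4 gliomas of genotype hGFAP-cre;p53flox/flox;Nf1KO/+, called p53 Nf1KO gliomas. It also held 4 normal forebrains and 3 normal cerebella. All gliomas carried hGFAP-cre, in which the human GFAP promoter, active in radial glia and neural progenitors, drives the Cre recombinase. The normal tissues came from wild-type brain per the extraction protocol, so Cre and the p53 and Nf1 alleles changed together with the tumour. Strain and age were not given in the sources used here, nor whether each array came from a separate animal, so p-values measure the spread between these samples.

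As background, a class II molecule pairs an alpha and a beta chain, binds peptides made from engulfed protein in endosomes, and shows them to CD4+ T cells. Newly made chains are held by the invariant chain, which Cd74 encodes and which the protease cathepsin S, encoded by Ctss, trims down to a short fragment in the groove. The H2-DM heterodimer then swaps that fragment for peptide, and the H2-O heterodimer restrains H2-DM. The coactivator CIITA, encoded by Ciita, switches on the chain genes, Cd74 and the H2-DM genes, and interferon gamma is its best-known inducer outside dendritic and B cells. In the healthy brain class II is scarce, and microglia, macrophages and other myeloid cells are its usual carriers when it appears.

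CIITA binds no DNA itself but docks on factors at paired promoter elements, the X box, bound by the RFX complex, and the Y box, bound by NF-Y. The 120 bases before the gene start are printed for 6 members because they show which of them carry exact core letters of both elements next to each other. They come from RefSeq on GRCm38.p6. Capitals mark GCAAC, a core found in X boxes, ATTGG, the Y box core (CCAAT on the other strand), and, in Ctss, GAAA followed after any NN by another GAAA, a core of interferon response elements, all searched on both strands. The windows are chr17:34287824-34287943 on the minus strand for H2-Aa, and on the plus strand chr17:34305747-34305866 for H2-Eb1, chr17:34092259-34092378 for H2-Oa, chr17:34238785-34238904 for H2-Ob, chr17:34153071-34153190 for H2-DMb1 and chr3:95526666-95526785 for Ctss.
H2-Aa: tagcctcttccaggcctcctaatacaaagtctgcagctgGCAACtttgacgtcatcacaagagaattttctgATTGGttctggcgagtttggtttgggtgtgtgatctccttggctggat
H2-Eb1: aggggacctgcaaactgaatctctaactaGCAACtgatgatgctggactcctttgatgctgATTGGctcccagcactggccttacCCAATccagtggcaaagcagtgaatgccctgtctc
H2-Oa: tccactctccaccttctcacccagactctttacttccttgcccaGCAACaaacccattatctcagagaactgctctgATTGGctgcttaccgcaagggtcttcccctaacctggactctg
H2-Ob: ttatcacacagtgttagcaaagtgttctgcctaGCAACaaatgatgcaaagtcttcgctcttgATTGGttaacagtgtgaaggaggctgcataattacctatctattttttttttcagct
H2-DMb1: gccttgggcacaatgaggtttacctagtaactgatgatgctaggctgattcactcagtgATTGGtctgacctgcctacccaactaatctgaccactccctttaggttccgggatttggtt
Ctss: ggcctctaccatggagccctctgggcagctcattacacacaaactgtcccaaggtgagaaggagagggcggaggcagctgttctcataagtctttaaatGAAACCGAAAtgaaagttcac
In H2-Aa, H2-Eb1, H2-Oa and H2-Ob the letters GCAAC were followed on the same strand by ATTGG, with starts 33, 32, 33 and 30 bases apart. A pair spaced 20 to 45 bases apart stood in these 4 of the 8 member windows searched and in 0.578% of all 32851 windows of that length. H2-DMb1 carried ATTGG, which 21.3% of windows hold, and Ctss carried the interferon response core, which 1.22% hold. The exact search passes over gtaac, which stands before ATTGG in H2-DMb1 where H2-Eb1 has GCAAC, followed in both by tgatgatgct. A pair not found by these letters is therefore not shown to be absent. H2-DMa had 2 entries, neither with the pair. The search covered 7 of the 10 members, as H2-Ab1 and Ciita had no entry and Cd74 was left out. The letters searched were chosen after these promoters had been read, so the counts are a description, and a match is not a binding site.

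Values throughout are the deposited normalized log2 values. Arrays of set Z1 had medians of 8.48 to 8.57 and those of set Z2 of 6.90 to 7.06, with more spread inside a Z2 array (SD 2.58 to 2.66) than inside a Z1 array (2.01 to 2.12). Levels were therefore never compared across sets. Glioma and proliferation genes rose in all 3 glioma models, 4 of 4 in each, and neuronal genes fell in the cis p53/Nf1 and p53 gliomas, 5 of 5 and 3 of 5. Of 5 endothelial genes 1 rose and 1 fell in each of these models, and of 3 astrocyte genes 3 and 1 fell. Over all genes 21.9%, 17.7% and 5.23% rose and 20.3%, 20.6% and 3.04% fell in the order cis p53/Nf1, p53 and p53 Nf1KO. The cerebella had 3 of 4 cerebellar genes higher and 2 of 4 forebrain genes lower than the forebrains, where 5.15% of all genes were called. The array labelled p53 glioma 1 stood apart: it lay at 13.5% of the way from the forebrain mean to the p53 glioma mean over all genes, against 75.1% to 140.5% for the other 8. Its neuronal genes averaged 10.92, inside the forebrain range of 10.27 to 10.96. Among the p53 Nf1KO gliomas, number 2 lay at 45%. Results on the p53 gliomas are given below with all 9, and without number 1 where this is stated.

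Of the class II chain genes H2-Ab1 rose in the cis p53/Nf1 and p53 gliomas, and the size of the difference varied widely from tumour to tumour. H2-Ab1, the beta chain of the I-A molecule, read 8.05, 7.82 and 6.88 in the 3 Z1 forebrains and from 8.89 to 11.96, with a median of 10.52, in the 9 cis p53/Nf1 gliomas. Every cis p53/Nf1 glioma lay above every Z1 forebrain. In set Z2 H2-Ab1 read 8.01, 7.21, 7.37 and 8.73 in forebrain and from 7.25 to 11.0, median 9.47, in p53 gliomas. Of these gliomas 8 of 9 lay above all forebrains, and number 1 was the exception. In the p53 Nf1KO gliomas the values were 9.13, 7.70, 8.79 and 9.0, so 3 of 4 lay above all forebrains.

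The log2 difference of H2-Ab1 from forebrain was 2.69 ± 0.57 (SE; 6.46-fold, limma adjusted p = 0.000361) in cis p53/Nf1 gliomas and 1.76 ± 0.52 (3.39-fold, limma adjusted p = 0.00858) in p53 gliomas. In p53 Nf1KO gliomas it was 0.83 ± 0.61 and did not pass the test (limma adjusted p = 0.398, 95% interval -0.42 to 2.07). The second H2-Ab1 probe set gave 1.89 ± 0.48, 1.25 ± 0.43 and 0.37 ± 0.50 in the same order, with limma adjusted p = 0.00185, 0.0226 and 0.664. Both probe sets thus gave a call in the same 2 models.

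H2-Aa, the alpha chain that pairs with H2-Ab1, read 7.19, 7.97 and 6.77 in Z1 forebrain and from 6.94 to 11.85, median 8.37, in cis p53/Nf1 gliomas. These groups overlapped, with 6 of 9 gliomas above all 3 forebrains. The log2 difference was 1.74 ± 0.72 with an adjusted p of 0.0525 from limma, just above the threshold of 0.05. Leaving out cis p53/Nf1 glioma 1, 2, 3, 5 or 6 brought the limma adjusted p to between 0.0195 and 0.0491, and the difference to between 1.82 and 2.00. In set Z2 H2-Aa read 8.15, 7.06, 7.46 and 8.63 in forebrain, from 7.22 to 10.29 with a median of 8.85 in p53 gliomas, and 8.84, 7.34, 8.51 and 8.01 in p53 Nf1KO gliomas. Its differences of 1.21 ± 0.65 and 0.35 ± 0.76 did not pass limma's test (adjusted p = 0.141 and 0.802).

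H2-Eb1, the beta chain of the I-E molecule, read 8.36, 8.66 and 7.99 in Z1 forebrain and from 8.18 to 11.45, median 9.04, in cis p53/Nf1 gliomas. Its values were 7.99, 6.51, 7.40 and 8.50 in Z2 forebrain, from 6.67 to 10.33 with a median of 8.58 in p53 gliomas, and 8.49, 6.85, 8.32 and 7.45 in p53 Nf1KO gliomas. All these groups overlapped with their forebrain. The differences were 1.15 ± 0.64, 1.21 ± 0.58 and 0.17 ± 0.68 in the order cis p53/Nf1, p53 and p53 Nf1KO, and none passed limma's test (adjusted p = 0.156, 0.0977 and 0.897). Without p53 glioma 1 the p53 difference was 1.48, past the threshold (limma adjusted p = 0.0265).

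Cd74, the invariant chain, spread widely among the tumours and was not called in any model. It read 8.81, 8.93 and 8.28 in Z1 forebrain and from 7.92 to 12.22, median 9.79, in cis p53/Nf1 gliomas, so the lowest glioma lay below every forebrain and 7 of 9 lay above all of them. In set Z2 it read 8.63, 7.74, 8.30 and 9.58 in forebrain, from 7.86 to 10.99 with a median of 9.74 in p53 gliomas, and 9.51, 7.93, 9.10 and 8.26 in p53 Nf1KO gliomas. The differences were 1.39 ± 0.67, 1.11 ± 0.60 and 0.14 ± 0.71, and none passed limma's test (adjusted p = 0.0971, 0.149 and 0.925). Without cis p53/Nf1 glioma 5, the lowest tumour, the first was 1.66 and passed (limma adjusted p = 0.0334).

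**Figure D1:**
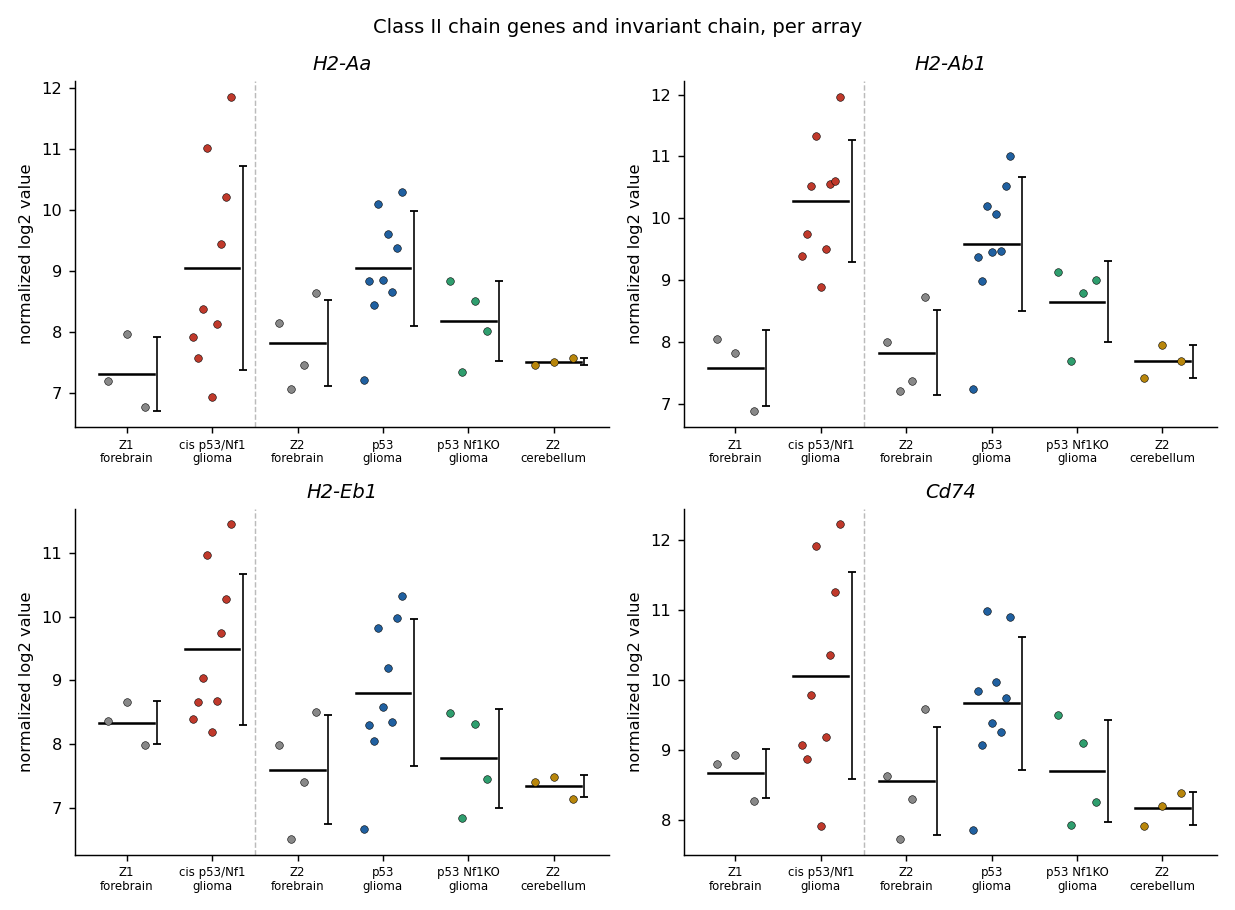
Normalized log2 values of H2-Aa, H2-Ab1, H2-Eb1 and Cd74 in all 32 arrays, 1 point per array in replicate order, with the group mean as a bar and the SD beside it. The dashed line parts set Z1 (left) from set Z2 (right), whose scales differ; the cis p53/Nf1 gliomas spread over 3.07 log2 units for H2-Ab1 and 4.91 for H2-Aa, while p53 glioma 1 sits at forebrain level.

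Among the members for peptide exchange, H2-DMb1 was called in p53 gliomas only, and H2-DMa in no glioma model. H2-DMb1, the beta chain of H2-DM, read 4.91, 4.57, 4.84 and 4.81 in Z2 forebrain and from 4.79 to 6.45, median 6.06, in p53 gliomas. There 8 of 9 gliomas lay above all forebrains, and the difference was 1.07 ± 0.28 (2.10-fold, limma adjusted p = 0.00355). The p53 Nf1KO gliomas read 5.53, 5.32, 5.04 and 5.03, all above every forebrain, yet the difference of 0.45 ± 0.32 did not pass limma's test (adjusted p = 0.386). In set Z1 the gene read 7.49, 7.44 and 7.10 in forebrain and from 6.84 to 8.16, median 7.35, in cis p53/Nf1 gliomas, a difference of 0.01 ± 0.31 (95% interval -0.62 to 0.63). The probe set shared with H2-DMb2 gave 0.84 ± 0.20 in p53 gliomas (limma adjusted p = 0.00204), 0.45 ± 0.22 in cis p53/Nf1 gliomas and 0.34 ± 0.24 in p53 Nf1KO gliomas. The last 2 did not pass limma's test (adjusted p = 0.110 and 0.364).

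H2-DMa, the alpha chain of H2-DM, read 8.93, 9.46 and 8.77 in Z1 forebrain and from 8.77 to 10.18, median 9.03, in cis p53/Nf1 gliomas. Its values were 8.27, 8.22, 7.77 and 8.34 in Z2 forebrain, from 7.96 to 8.91 with a median of 8.08 in p53 gliomas, and 7.97, 8.10, 7.39 and 7.88 in p53 Nf1KO gliomas. Glioma and forebrain values were intermingled in every model. The differences of 0.23 ± 0.28, 0.19 ± 0.25 and -0.32 ± 0.30 did not pass limma's test (adjusted p = 0.563, 0.584 and 0.521).

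H2-Oa and H2-Ob, the chains of the H2-DM inhibitor and best known from B cells and thymic epithelium, showed no called difference from forebrain. H2-Oa differed by 0.07 ± 0.41, 0.57 ± 0.37 and 0.28 ± 0.44 in cis p53/Nf1, p53 and p53 Nf1KO gliomas, and H2-Ob by 0.16 ± 0.25, 0.21 ± 0.22 and 0.01 ± 0.26. The lowest of these 6 limma adjusted p-values was 0.230. H2-Oa ran from 4.93 to 7.55 in p53 gliomas, where numbers 4, 5 and 6 read 7.43, 7.31 and 7.55 and lay above all 4 forebrains (5.04, 5.60, 5.75 and 6.75). H2-Ob was highest in the same group in p53 glioma 4, at 5.42, against 4.05 to 4.66 in forebrain.

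Ciita read near the bottom of every array, between the 10.03 and 22.4 percentiles of its own array, and was not called in any model. Its values were 6.09, 6.04 and 6.07 in Z1 forebrain and 6.04 to 6.37 in cis p53/Nf1 gliomas. In set Z2 they were 3.61, 3.44, 3.44 and 3.47 in forebrain, from 3.34 to 4.10 in p53 gliomas and 3.63, 3.40, 3.51 and 3.44 in p53 Nf1KO gliomas. The highest p53 gliomas were numbers 9 and 2, at 4.10 and 4.05, and the groups overlapped. The differences were 0.08 ± 0.12, 0.19 ± 0.11 and 0.00 ± 0.12, and none passed limma's test (adjusted p = 0.624, 0.146 and 0.989).

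Ctss, the invariant chain protease, lay between the 87.9 and 99.2 percentiles of its array and rose in the cis p53/Nf1 and p53 gliomas. In set Z2 it read 11.45, 11.53, 11.55 and 11.51 in forebrain, from 11.83 to 12.31 with a median of 12.14 in p53 gliomas, and 11.98, 11.84, 11.93 and 11.89 in p53 Nf1KO gliomas. All 13 Z2 gliomas, p53 glioma 1 included, thus lay above all 4 forebrains. In set Z1 it read 11.78, 11.38 and 11.21 in forebrain and from 11.55 to 13.28, median 12.77, in cis p53/Nf1 gliomas, of which 7 of 9 lay above all forebrains. The differences were 1.03 ± 0.25 in cis p53/Nf1 gliomas (2.04-fold, limma adjusted p = 0.00120), 0.61 ± 0.22 in p53 gliomas (1.53-fold, adjusted p = 0.0301) and 0.40 ± 0.26 in p53 Nf1KO gliomas (adjusted p = 0.337). The p53 call was lost without any 1 of the 4 Z2 forebrains (limma adjusted p between 0.0567 and 0.0702). The errors pool the spread of all 6 groups. The SD of Ctss was 0.06 in p53 Nf1KO gliomas and 0.04 in Z2 forebrain, but 0.60 in cis p53/Nf1 gliomas. Fitted to the compared groups alone, the p53 Nf1KO difference passed limma's test (adjusted p = 0.0377).

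**Figure D2:**
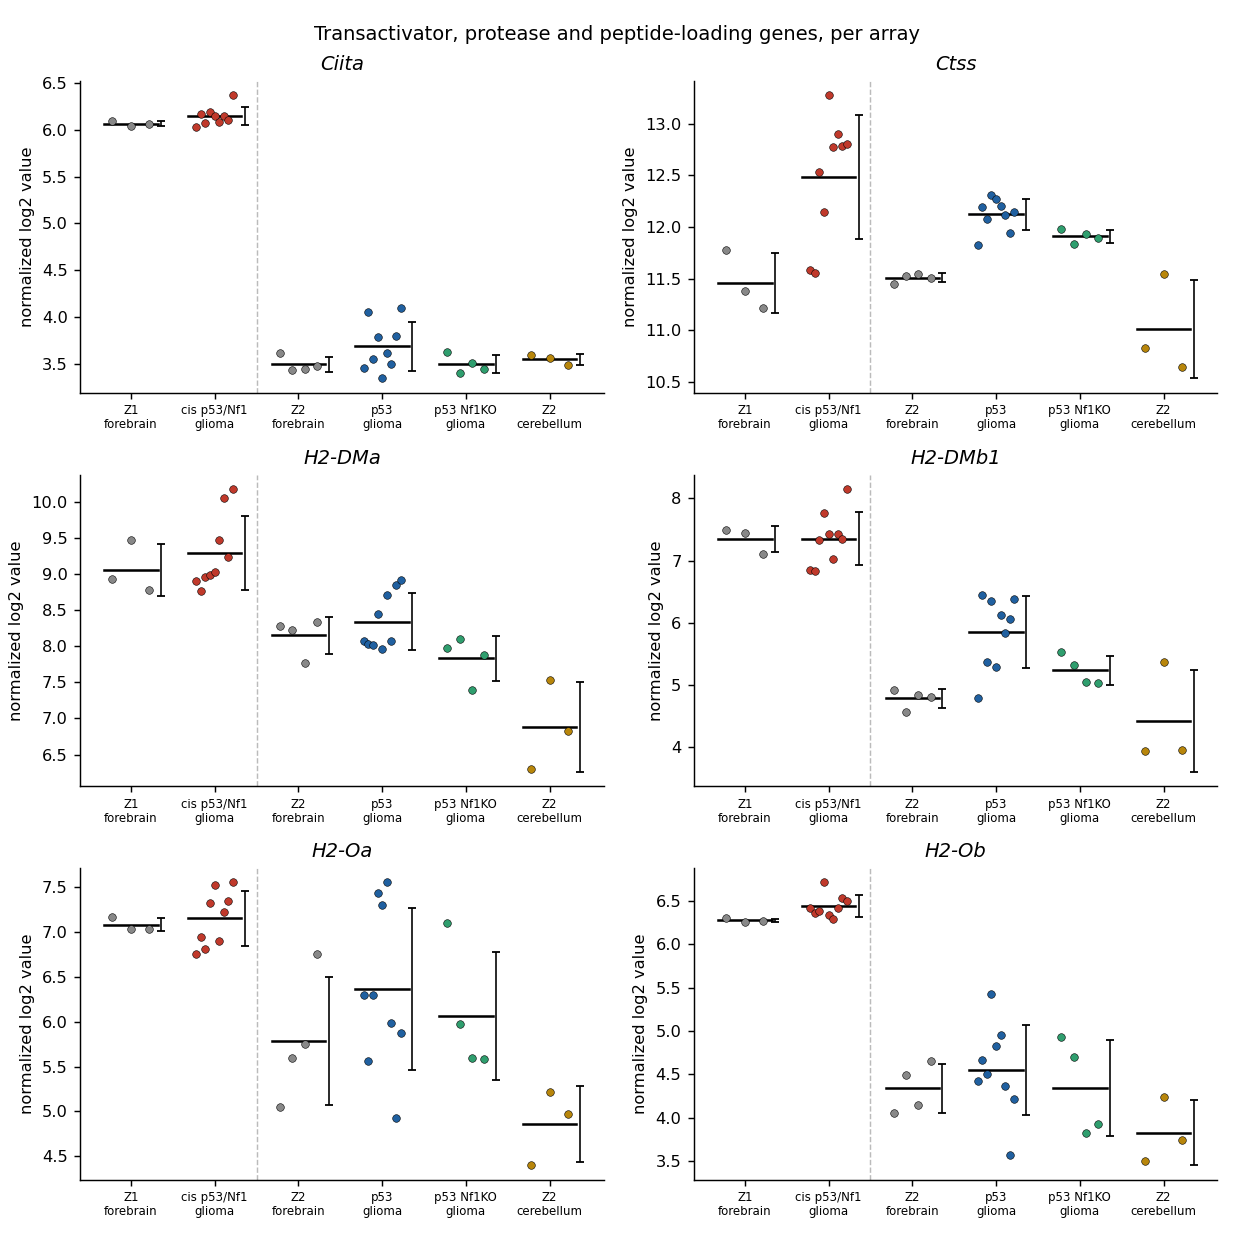
Normalized log2 values of Ciita, Ctss, H2-DMa, H2-DMb1, H2-Oa and H2-Ob in all 32 arrays, drawn as points in replicate order with the mean and SD of each group. Ctss separates all 13 Z2 gliomas from the 4 Z2 forebrains, and H2-DMb1 lies higher in p53 gliomas (mean 5.85) than in Z2 forebrain (mean 4.78) but not in cis p53/Nf1 gliomas (7.35 against 7.34).

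Counted over the members, 2 of 10 (H2-Ab1 and Ctss) rose in cis p53/Nf1 gliomas, where 21.9% of all genes rose and 42.1% were called in either direction. In p53 gliomas 3 of 10 (H2-Ab1, H2-DMb1 and Ctss) rose, where 17.7% of all genes rose and 38.3% were called. In p53 Nf1KO gliomas 0 of 10 passed limma's test, where 5.23% of all genes rose and 8.27% were called, and 0 of the 10 had an unadjusted p under 0.05. Read against all genes, 2 of 10 is near the background share, and 3 of 10 is about 1 gene above it. No member fell in any of these 3 comparisons, where 20.3%, 20.6% and 3.04% of all genes fell. The 10 members had a median difference of 0.63, 0.84 and 0.23 in the order cis p53/Nf1, p53 and p53 Nf1KO, beside -0.00, -0.04 and -0.07 over all genes. Gliomas did not overlap with forebrain, on the higher side, for H2-Ab1 in the first model, Ctss in the second, and H2-DMb1 and Ctss in the third, where 17.9%, 5.2% and 10.1% of all genes did so. Without cis p53/Nf1 glioma 5 the count in that model was 4, and without p53 glioma 1 the count in p53 gliomas was also 4. The p53 and p53 Nf1KO comparisons share their 4 forebrains, so their differences are not independent of each other. Tissue was profiled in bulk. A change in how many cells express a gene cannot be told apart from a change in RNA per cell.

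**Figure D3:**
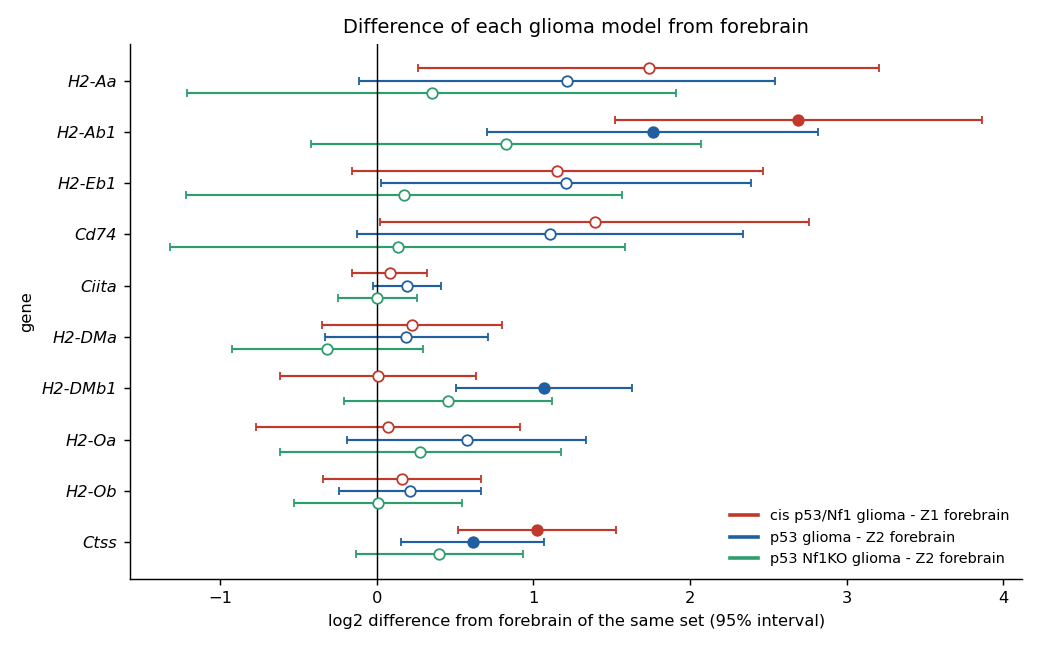
Log2 difference of each member from forebrain of its own set in cis p53/Nf1 (red), p53 (blue) and p53 Nf1KO (green) gliomas, with 95% intervals from limma. Filled points passed an adjusted p of 0.05: H2-Ab1 and Ctss in red, and H2-Ab1, H2-DMb1 and Ctss in blue.

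The p53 Nf1KO gliomas read lower than the p53 gliomas of the same set for all 10 members, by -0.19 (Ciita) to -1.03 (H2-Eb1), but none of these differences passed the test. H2-Eb1 differed by -1.03 ± 0.58, Cd74 by -0.97 ± 0.60, H2-Ab1 by -0.94 ± 0.52 and H2-Aa by -0.86 ± 0.65, with limma adjusted p from 0.452 to 0.576. H2-DMb1, at -0.62 ± 0.28, was the 1 member with an unadjusted p under 0.05 (limma, 0.0337, adjusted 0.367). Over all genes 54.7% were lower and 0.145% were called, 25 in number, against 454 without p53 glioma 1. Without p53 glioma 1 the differences were larger, -1.30 for H2-Eb1 and -1.23 for H2-Ab1, and still none of the 10 passed (lowest limma adjusted p = 0.0938, for H2-DMb1). Without p53 Nf1KO glioma 2, which also lay nearer forebrain, they were smaller, -0.72 for H2-Eb1 and -0.62 for H2-Ab1. With all arrays the 95% interval for H2-Ab1 ran from -1.99 to 0.12.

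Across the sets, the difference from forebrain was compared between models. For H2-DMb1 the difference in cis p53/Nf1 gliomas minus that in p53 gliomas was -1.06 ± 0.41, which did not pass limma's test (unadjusted p = 0.0155, adjusted 0.190). For H2-Ab1 it was 0.93 ± 0.77, with a 95% interval from -0.65 to 2.51. None of the 10 members passed in this comparison, where 1.75% of all genes were called, nor between cis p53/Nf1 and p53 Nf1KO gliomas, where 3.94% were. In the latter H2-Ab1 had the largest difference, 1.87 ± 0.83 (limma, unadjusted p = 0.0334, adjusted 0.209). The H2-DMb1 call in p53 gliomas and its absence in cis p53/Nf1 gliomas are therefore not shown to differ. Nor do these comparisons remove the different spread of values in the 2 sets.

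Within the cis p53/Nf1 and the p53 model, tumours ranged from forebrain level to far above it. In cis p53/Nf1 gliomas numbers 9, 4, 8 and 7 were the top 4 for each of H2-Aa, H2-Ab1, H2-Eb1 and Cd74. Averaged over these 4 genes, cis p53/Nf1 gliomas 9, 4, 8 and 7 lay 3.89, 3.33, 2.61 and 2.05 above the forebrain mean, and glioma 5 lay at 0.01. In cis p53/Nf1 glioma 9 H2-Aa lay 4.54, H2-Ab1 4.38, Cd74 3.55 and H2-Eb1 3.11 above forebrain. In cis p53/Nf1 glioma 5 H2-Ab1 was still 1.31 above forebrain while Cd74 was at -0.76, and its Ctss, 1.82 above, was the highest of the group. Among p53 gliomas the average was 2.67 in number 9, 2.32 in number 4 and 1.95 in number 8, and -0.70 in number 1. Among p53 Nf1KO gliomas it was 1.04 in number 1 and -0.50 in number 2. These averages describe single tumours and were not tested.

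**Figure D4:**
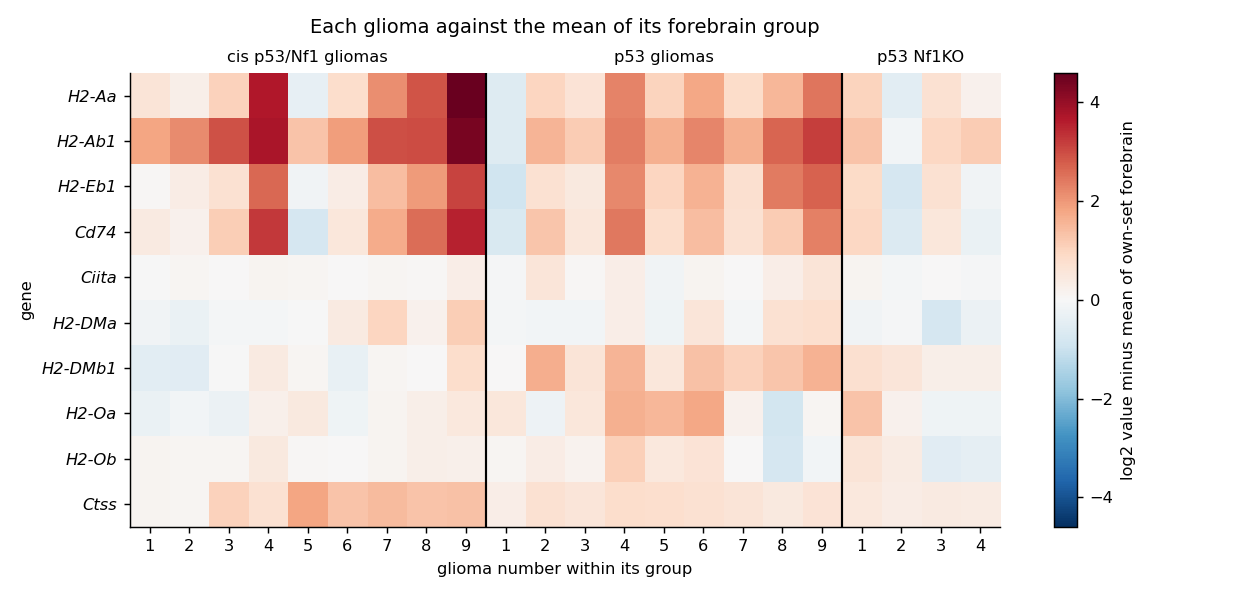
Log2 value of each member in each of the 22 gliomas minus the mean of the forebrains of its own set, red for higher and blue for lower. The top 4 rows share their dark columns (cis p53/Nf1 gliomas 4, 8 and 9, for example, with a 4-gene average of 3.33, 2.61 and 3.89), while the Ctss row is more even and the Ciita row stays near 0.

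The co-variation of the chain genes was close in both models with 9 gliomas. Among H2-Aa, H2-Ab1, H2-Eb1 and Cd74 the 6 pairwise Pearson correlations ran from 0.949 to 0.991 in cis p53/Nf1 gliomas and from 0.897 to 0.975 in p53 gliomas. H2-Ab1 was then tested against the other 9 members and 7 genes of the interferon response and of immune cells in each model, 32 relations in all, by exact two-sided permutation. In cis p53/Nf1 gliomas 4 members passed after Benjamini-Hochberg adjustment: H2-Aa, H2-Eb1, Cd74 and H2-DMb1. With H2-Eb1 r was 0.957 (rho 0.983; exact permutation p = 5.51e-06 and 4.96e-05, adjusted 0.000132 and 0.000794). In p53 gliomas 5 members passed, H2-Aa, H2-Eb1, Cd74, H2-DMa and H2-DMb1, and so did the interferon response factor Irf1. There H2-Eb1 had r = 0.975 (rho 0.983; exact permutation p = 8.27e-06 and 4.96e-05, adjusted 0.000132 and 0.000794).

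The 3 relations called for the H2-DM genes, and that with Cd74 in p53 gliomas, passed by Pearson's r but not by rank. Cd74 had r = 0.897 in p53 gliomas (rho 0.767, exact permutation p = 0.00176 and 0.0214, adjusted 0.00802 and 0.0761). H2-DMb1 had r = 0.793 in cis p53/Nf1 gliomas (rho 0.583; exact permutation p = 0.0108 and 0.108, adjusted 0.0346 and 0.216) and r = 0.820 in p53 gliomas (rho 0.567; exact permutation p = 0.00537 and 0.121, adjusted 0.0215 and 0.227). H2-DMa had r = 0.734 in p53 gliomas (rho 0.767; exact permutation p = 0.0130 and 0.0214, adjusted 0.0378 and 0.0761) and r = 0.524 in cis p53/Nf1 gliomas (exact permutation, adjusted p = 0.232). Irf1 had r = 0.909 (rho 0.883; exact permutation p = 0.00160 and 0.00308, adjusted 0.00802 and 0.0164) in p53 gliomas. In cis p53/Nf1 gliomas Irf1 had r = 0.697 with H2-Ab1, not past the adjusted threshold (exact permutation, adjusted p = 0.0801).

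Ctss did not follow H2-Ab1 from tumour to tumour in a way the test could see: r was 0.077 in cis p53/Nf1 and 0.521 in p53 gliomas (rho 0.067 and 0.300; exact permutation, adjusted p = 0.902 and 0.232). H2-Oa and H2-Ob had r = -0.069 and -0.084 in p53 gliomas (exact permutation, adjusted p = 0.902 for both). In cis p53/Nf1 gliomas H2-Ob had r = 0.723, not past the threshold, and rho = 0.817, just past it (exact permutation p = 0.0247 and 0.0108, adjusted 0.0659 and 0.0492). The myeloid genes Cd68 and Cx3cr1 had r = 0.056 and 0.047 in cis p53/Nf1 gliomas and 0.623 and -0.232 in p53 gliomas, none past the threshold (lowest exact permutation adjusted p = 0.158). Aif1 had r = 0.428 and 0.282, Itgax 0.373 and 0.718, and the T cell gene Cd3e 0.686 and 0.270 in the same order of models, again none past the threshold (lowest exact permutation adjusted p = 0.0801, for Itgax in p53 gliomas). When the 2 tumours farthest from the median of H2-Ab1 were left out, numbers 5 and 9 in cis p53/Nf1 and 1 and 9 in p53 gliomas, 6 of the 32 relations passed instead of 11. H2-Eb1 then had r = 0.925 and 0.974, H2-DMb1 0.963 in cis p53/Nf1 gliomas and H2-DMa 0.914 in p53 gliomas. The 4 relations called in cis p53/Nf1 gliomas still passed, as did those with H2-Eb1 and H2-DMa in p53 gliomas. In p53 gliomas r was 0.842 for H2-Aa, 0.762 for Irf1, 0.651 for Cd74 and 0.545 for H2-DMb1, and these 4 relations no longer passed (exact permutation, adjusted p = 0.0817, 0.0861, 0.241 and 0.401).

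**Figure D5:**
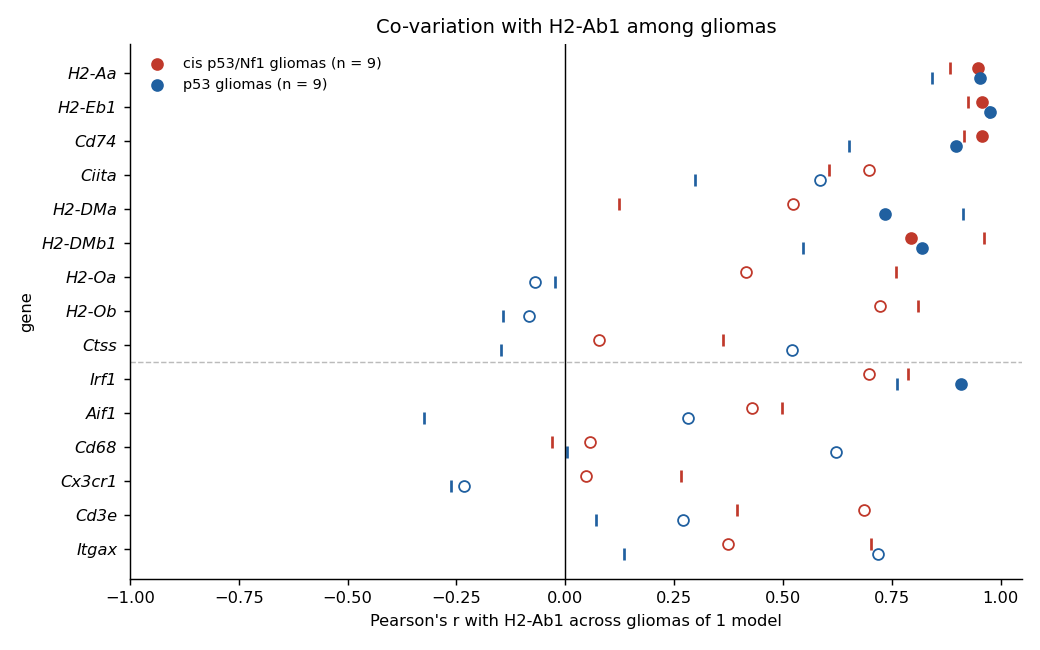
Pearson's r between H2-Ab1 and the other 9 members (above the dashed line) and 6 further genes (below) across the 9 cis p53/Nf1 (red) and the 9 p53 gliomas (blue). Filled points passed an adjusted exact permutation p of 0.05, and ticks give r without the 2 tumours farthest from the median; H2-Aa, H2-Eb1 and Cd74 lie at 0.897 or above with all tumours.

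Ranked over all 17296 other genes by their correlation with H2-Ab1 across the 22 gliomas, as deviations from the mean of each model, H2-Eb1 (r = 0.952), H2-Aa (0.898) and Cd74 (0.889) took the first 3 places. The next among features with a gene name were Ifi35 (0.878), Psmb9 (0.864), Cybb (0.846), Irgm1 (0.842), AW112010 (0.840), Ifi47 (0.837) and Apip (0.836). Ifi35, Irgm1 and Ifi47 are interferon-inducible genes, Psmb9 encodes an immunoproteasome subunit and Cybb a subunit of the phagocyte oxidase. With unnamed features included, H2-DMb1 came 48th, Ciita 545th, H2-DMa 822nd, Ctss 5945th, H2-Oa 7499th and H2-Ob 8419th. This ranking is a description and was not tested. It pools sets Z1 and Z2, whose arrays differ in spread, and the tissue make-up of each tumour was not taken into account.

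The wider pathway is given here by lists of genes. Beside their counts, 21.9%, 17.7% and 5.23% of all genes rose in cis p53/Nf1, p53 and p53 Nf1KO gliomas. In the same order 20.3%, 20.6% and 3.04% fell, and the median difference over all genes was -0.00056, -0.04 and -0.07. Of 12 measured proteases and helpers of endosomal processing, 8 rose and 1 fell in cis p53/Nf1 gliomas, 8 rose and 1 fell in p53 gliomas and 5 rose in p53 Nf1KO gliomas. Their median differences were 0.80, 0.84 and 0.67. Ctsc, a dipeptidyl peptidase, rose by 2.97, 2.28 and 1.89, and Ifi30, the lysosomal thiol reductase that unfolds antigens, by 2.31, 1.99 and 1.55. Of 13 genes of the interferon gamma pathway, 7 rose and 1 fell, 8 rose and 1 fell, and 6 rose, with medians of 0.57, 1.61 and 0.89. The chemokine gene Cxcl10 rose by 3.23, 5.85 and 4.10, and the GTPase gene Irgm1 by 3.01, 3.22 and 2.42. The gene for interferon gamma itself, Ifng, was not called (-0.17, -0.16 and -0.13; lowest limma adjusted p = 0.113).

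Of the 12 measured regulators of class II genes, 6 rose and 1 fell in cis p53/Nf1 gliomas, and 2 rose in each Z2 model. These counts stand beside 21.9%, 17.7% and 5.23% of all genes that rose in cis p53/Nf1, p53 and p53 Nf1KO gliomas. In p53 gliomas 2 of 12 is near that share. Irf8, a myeloid and B cell transcription factor, rose by 2.29, 2.30 and 2.07, and Spi1, the myeloid factor PU.1, by 0.66, 0.98 and 0.69. The RFX subunit genes Rfx5 and Rfxank were not called in any model. Among the neighbours of the class II genes on chromosome 17, some rose and none fell. Psmb8 and Psmb9, immunoproteasome subunits, rose by 3.68 and 2.62, by 3.56 and 2.63, and by 2.92 and 1.93 in the same order of models. Of the 10 neighbours measured, 4, 6 and 2 rose. H2-DMb2, a second H2-DM beta chain gene, rose in p53 gliomas by 0.99 ± 0.25 (limma adjusted p = 0.00285). H2-Ea, the partner chain of H2-Eb1, was not called in any model. Of 9 genes of class II turnover and T cell costimulation, 1 rose and 1 fell, 4 rose, and 1 rose. Cd86, a costimulatory ligand, rose by 1.78 in p53 and 1.43 in p53 Nf1KO gliomas, and Cd274, the gene for PD-L1, by 1.52 in p53 gliomas.

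Markers of cells that could carry class II moved as follows. Over all genes 21.9%, 17.7% and 5.23% rose in the order cis p53/Nf1, p53 and p53 Nf1KO, and 20.3%, 20.6% and 3.04% fell. Of 12 macrophage and monocyte genes, 5, 8 and 4 rose in the order cis p53/Nf1, p53 and p53 Nf1KO, and none fell. Their mean log2 level was 8.44 to 9.31 in cis p53/Nf1 gliomas against 7.12 to 7.57 in forebrain, and 6.29 to 8.37 in p53 and 7.17 to 7.61 in p53 Nf1KO gliomas against 5.93 to 6.19. Lgals3 rose by 4.56, 4.17 and 3.21, and Cd68, a lysosomal protein of macrophages, by 1.66, 1.78 and 1.38. Of 7 microglial genes, P2ry12 fell by 1.87 in cis p53/Nf1 gliomas and Aif1 rose by 1.45 in p53 gliomas, and no other was called. Of 8 dendritic cell genes, Itgax, the gene for CD11c, rose by 1.62, 4.16 and 3.15, and Flt3 fell by 1.49 and 1.06 in the p53 and p53 Nf1KO gliomas. The remaining 6 were not called in these 3 comparisons.

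Few lymphocyte genes were called. Of all genes, 42.1%, 38.3% and 8.27% were called in cis p53/Nf1, p53 and p53 Nf1KO gliomas, and 20.3%, 20.6% and 3.04% fell. Of 13 T cell genes, Cd4 fell in cis p53/Nf1 (-0.41) and p53 gliomas (-0.36), and Lag3 rose by 1.44 in p53 gliomas. The T cell list averaged 6.57 to 6.86 in cis p53/Nf1 gliomas against 6.56 to 6.81 in forebrain, and 3.72 to 4.31 in the Z2 gliomas against 3.71 to 3.99. Of 8 B cell genes, 1, 1 and 3 fell and none rose, and the B cell list averaged 6.16 to 6.32 in cis p53/Nf1 gliomas against 6.35 to 6.55 in forebrain. In set Z2 it averaged 3.37 to 3.70 in p53 and 3.25 to 3.54 in p53 Nf1KO gliomas against 3.53 to 3.97 in forebrain. Both lists averaged below the array medians of 8.48 to 8.57 in set Z1 and 6.90 to 7.06 in set Z2. The B cell averages lay near the values of Ciita, at the bottom of the arrays. No detection calls were used, so whether these genes were detected is not known. Without p53 glioma 1, 1 macrophage gene and 2 B cell genes fell in p53 gliomas, instead of 0 and 1. The macrophage list was higher in every glioma than in any forebrain of its set, and its part in the class II differences was not tested. In cis p53/Nf1 gliomas the macrophage list was lowest in number 8 (8.44) and highest in number 3 (9.31), whose 4-gene class II averages lay 2.61 and 1.46 above forebrain. In p53 gliomas it was lowest in number 1 (6.29) and highest in number 4 (8.37), with class II averages of -0.70 and 2.32. In p53 Nf1KO gliomas it was lowest in number 3 (7.17) and highest in number 4 (7.61), with class II averages of 0.72 and 0.22.

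Among the normal tissues of set Z2, the cerebella read lower than the forebrains for 9 of the 10 members, where 42.8% of all genes were lower, and 1 member fell. H2-DMa read 6.29, 7.54 and 6.82 in cerebellum against 8.27, 8.22, 7.77 and 8.34 in forebrain, with no overlap. The difference was -1.27 ± 0.32 (limma adjusted p = 0.0170) in a comparison where 2.39% of all genes fell and 5.15% were called, and where 9.83% did not overlap on the lower side. The call was lost without cerebellum 1 (-0.97, limma adjusted p = 0.200), without cerebellum 4 (-1.23, adjusted p = 0.0947) or without forebrain 4 (-1.20, adjusted p = 0.0516). H2-Oa, at -0.93 ± 0.47, H2-Ob, at -0.51 ± 0.28, and Ctss, at -0.50 ± 0.28, did not pass limma's test (adjusted p = 0.325, 0.379 and 0.386). The chain genes and Cd74 differed by -0.14 to -0.39 and were not called, nor were H2-DMb1 (-0.36) and Ciita (0.05).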

How the data were processed

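Total RNA was hybridised as biotin-labelled complementary RNA to Affymetrix mouse genome arrays, per the labels' protocols. The values deposited are on a log2 scale and normalized, 1 per array for each of 18328 custom probe sets, in 2 tables whose largest difference was 0. The summarisation and normalization are not given in the sources used here. Arrays were grouped by genotype and by the set, tissue and number in their titles. Probe sets were named by gene identifier in RefSeq's GRCm38.p6 table: 17226 matched 1 gene, 785 several and 317 none. H2-Ea kept the name in the file. The brightest probe set of each gene was kept, which left 17297 features, unnamed ones included, with no filter on low values.

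limma 3.58.1 in R 4.3.3 (lmFit with 1 mean per group over all 32 arrays, contrasts, eBayes) was run on all features, with Benjamini-Hochberg adjustment over all 17297 and calls at adjusted p under 0.05. Errors are limma's standard errors and intervals 95% from its moderated degrees of freedom. The fit was tested on simulated data. Correlations used all 362880 pairings of 9 tumours. The number of arrays limits the precision, and no detection calls were used. Sequences came from RefSeq's promoter table.

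The members and gene lists were chosen with earlier results of these data known. The text names the 10 members, from each pathway or immune list up to 4 called genes with the largest difference per glioma comparison, the genes of the correlation family and the 10 genes most correlated with H2-Ab1. The values of 1 gene of these lists are not reported here, though it stays in the counts and in the adjustment. Brain, proliferation and endothelial lists are given by counts. Chosen after their values were seen were Rfx5, Rfxank, Ifng and H2-Ea, named as uncalled, and any listed gene named outside the largest 4. Alternatives were another normalization or scale, all probe sets, a filter on low values, fewer samples in the fit, robust variances, a stricter threshold, a replicate block and leaving out each array.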

Additional observations from a re-analysis of the deposited data

Results flagged for a closer look

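Ciita in cis p53/Nf1 glioma 9 read 6.37, against 6.04 to 6.20 in the other 8 gliomas of the group. Its gap to the nearest other glioma took a share of 0.526 of the group's whole range, above Dixon's critical value for 9 samples. The same tumour had the highest H2-Aa, H2-Ab1, H2-Eb1 and Cd74 of its group, at 11.85, 11.96, 11.45 and 12.22. The test was run in 40 groups of values, and chance alone gives about 1 in 20.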

How the results depend on the processing

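With all probe sets tested as separate features, or with robust variances, all 70 member differences kept their direction and their side of the threshold. The 0 calls among members between glioma models held under every alternative run. In the cis p53/Nf1 gliomas H2-Ab1 stayed called under each of them, while the count of members called was 2 to 4 when 1 array was left out. It was 2 to 4 in p53 gliomas, 0 in p53 Nf1KO gliomas and 0 to 1 in cerebellum. Fitted to the compared groups alone, limma called 1 member in p53 Nf1KO gliomas (Ctss, 0.40, adjusted p = 0.0377) and 0 in cerebellum, and at an adjusted p under 0.01 also 0 in cerebellum. Scaling the arrays to 1 SD ended the Ctss call in p53 gliomas (0.55, limma adjusted p = 0.0791) and gave one for H2-Aa in cis p53/Nf1 gliomas (2.06, adjusted p = 0.0327), as did leaving out the dimmest 25% of features (adjusted p = 0.0409). Without the 2 farthest tumours 6 relations with H2-Ab1 passed in place of 11. The causes of these changes were not tested.

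Correlations of same-numbered deviations ran from -0.332 to 0.375 over 18 pairs, with 0.336 for cerebellum 4 and forebrain 4. Differently numbered arrays were not correlated for comparison, so these values cannot show whether the replicate numbers pair the samples. With the replicate number as a block, 1 member was called in cis p53/Nf1 gliomas and 0 in p53 gliomas, and 4 member calls were lost and 8 directions turned. Those that turned were H2-DMa (-0.18), H2-DMb1 (-0.34) and H2-Oa (-0.24) in cis p53/Nf1 gliomas, H2-DMa in p53 gliomas (-0.00779), and, between these models, H2-Aa (-0.17), Cd74 (-0.31), H2-DMa (-0.18) and Ctss (-0.16).

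Other reversals were as follows. H2-DMb1 in cis p53/Nf1 gliomas was -0.0101 after quantile normalization and -0.0347 after median centring. In p53 Nf1KO gliomas Ciita was -0.0482 after median centring and -0.0298 at 1 SD, and H2-Ob was -0.0426, -0.0430 and -0.0188 after quantile normalization, median centring and at 1 SD. Between cis p53/Nf1 and p53 gliomas H2-Eb1 was 0.28 at 1 SD. Without the 2 farthest tumours r with H2-Ab1 was -0.0303 for Cd68 in cis p53/Nf1 gliomas, and -0.15 for Ctss and -0.32 for Aif1 in p53 gliomas, against 0.521 and 0.282 with all tumours. Leaving out 1 array, differences ran across 0 for H2-DMb1 in cis p53/Nf1 gliomas (-0.11 to 0.0787). In p53 Nf1KO gliomas they did so for H2-Eb1 (-0.19 to 0.49), Cd74 (-0.14 to 0.48), Ciita (-0.0402 to 0.0446), H2-Oa (-0.0685 to 0.60) and H2-Ob (-0.19 to 0.18). Between cis p53/Nf1 and p53 gliomas they did so for H2-Eb1 (-0.36 to 0.31), Cd74 (-0.0527 to 0.56), H2-DMa (-0.10 to 0.24) and H2-Ob (-0.17 to 0.0590). Between cis p53/Nf1 and p53 Nf1KO gliomas H2-Oa (-0.53 to 0.14) and H2-Ob (-0.0224 to 0.35) crossed 0, and in cerebellum H2-Ab1 (-0.35 to 0.16) and H2-Eb1 (-0.62 to 0.0399).

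Counts over all genes moved by more than 1.5 times as follows. With the block 1214 genes were called in p53 gliomas in place of 6618, 717 in p53 Nf1KO gliomas in place of 1431, 10 between p53 Nf1KO and p53 gliomas in place of 25, and 651 between cis p53/Nf1 and p53 gliomas in place of 302. At 1 SD the counts were 934, 7 and 1708 for the last 3, and 2636 between cis p53/Nf1 and p53 Nf1KO gliomas in place of 682. For that last comparison the compared groups alone gave 1512. Between p53 Nf1KO and p53 gliomas the compared groups alone, and the filter on dim features, each gave 5. At an adjusted p under 0.01 the counts were 4088 in p53 gliomas, 394 in p53 Nf1KO gliomas, 2 between these, 61 and 134 between cis p53/Nf1 gliomas and each of them, and 394 in place of 890 in cerebellum. Leaving out 1 array, the counts ran from 414 (without p53 Nf1KO glioma 4) to 2511 (without number 2) in p53 Nf1KO gliomas, and between p53 Nf1KO and p53 gliomas from 9 (without p53 glioma 2) to 454 (without number 1). They ran from 86 (without Z1 forebrain 2) to 580 (without p53 glioma 9) between cis p53/Nf1 and p53 gliomas, and from 253 to 1149 (without p53 Nf1KO gliomas 2 and 4) between cis p53/Nf1 and p53 Nf1KO gliomas. In cerebellum they ran from 272 to 1486 (without cerebella 4 and 2). The share of calls on the higher side moved from 63.2% to 52.9% after median centring in p53 Nf1KO gliomas. Between p53 Nf1KO and p53 gliomas it was 52.0%, 38.9% after quantile normalization and 71.4% at 1 SD. Between cis p53/Nf1 and p53 gliomas it was 38.1%, 52.6% and 53.6%, and between cis p53/Nf1 and p53 Nf1KO gliomas 41.1%, 53.6% and 56.8%.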
